A study of Mus musculus with 9 samples.

Results

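The nuclear genes for the subunits of mitochondrial respiratory complexes II, III, IV and V, with cytochrome c, were followed in mouse gastrocnemius, the large calf muscle. The set was a list of 42 genes found by symbol in the deposited table of 35275 genes, and it was chosen with earlier results of these data known. It held 4 genes of complex II, 9 of complex III, the cytochrome c gene Cycs, 13 of complex IV and 15 of complex V. The mice were wild-type C57BL/6J animals aged 8 to 10 weeks when they received an osmotic minipump, a device placed in the body that delivers its content at a steady rate. In the ammonium acetate group (5 libraries, numbered 4 to 8) the pump delivered 2.5 mmol per kg per day of this ammonia source, and in the control group (4 libraries, numbered 4, 5, 7 and 8) it held phosphate-buffered saline (PBS). All muscles were taken 4 weeks after implantation, and the series asks how skeletal muscle responds to a raised ammonia load. Since the labels do not say whether each library is 1 animal, the p-values refer to the spread among libraries, which may be technical.

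Complex II, succinate dehydrogenase, belongs both to the citric acid cycle and to the respiratory chain and passes electrons from succinate to ubiquinone. Complex III moves electrons from ubiquinol to the small soluble carrier cytochrome c, complex IV (cytochrome c oxidase) moves them on to oxygen, and complex V (ATP synthase) uses the resulting proton gradient to make ATP. All subunits of complex II come from the nucleus, whereas complexes III, IV and V also need subunits made from mitochondrial DNA. Skeletal muscle carries its own isoforms of some complex IV subunits, and oxidative fibres hold more of the chain than fast glycolytic fibres do.

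The values were FPKM (fragments per length of gene and per counted fragments of the library) as deposited, and libraries are listed throughout in the order PBS 4, 5, 7 and 8 and ammonium acetate 4 to 8. Between 24930547 and 41780251 reads stood behind a library, and a member was covered by 565 to 123010 reads in any library. Group values are given as mean ± SD, with n = 4 for PBS and n = 5 for ammonium acetate. Skeletal muscle fibre markers were at high levels in every library, with a sum of Acta1, Ckm, Myh4, Tnnt3 and Mb of 55529.5 to 64695 FPKM in PBS and 57074 to 78572 in ammonium acetate. Ammonium acetate libraries 6 and 8 stood apart. They had the fewest genes above 0 (14668 and 16008, against 16708 to 18301 in the other 7 libraries), and their short genes read high against their long genes. The median log2 deviation of genes under 1000 bases exceeded that of genes over 4000 bases by 0.56 and 0.53 in these 2 libraries, against -0.39 to 0.05 in the others. Ammonium acetate library 5 also carried skin transcripts, with 56.6 FPKM summed over Krt5, Krt10, Krt14 and Lor against 0.491 to 1.22 elsewhere.

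The members were among the most abundant messages of the muscle. By mean FPKM over the 9 libraries 15 of the 42 ranked among the first 100 tested genes and 40 among the first 500, from Atp5b at rank 33 to Cox6a1 at rank 1168. Together they took 1.93% ± 0.245 of all reads in the PBS libraries (SD, n = 4) and 2.02% ± 0.30 in those of ammonium acetate (SD, n = 5). Complex V made up the greater part of this, with 1.03% ± 0.123 and 1.07% ± 0.139. Complex III held 0.339% ± 0.0451 and 0.367% ± 0.0702, complex IV 0.327% ± 0.0467 and 0.368% ± 0.0734, and complex II 0.194% ± 0.0305 and 0.178% ± 0.0218. Levels within a complex were uneven. The highest member exceeded the lowest by 3.02-fold in complex II (Sdhb over Sdhc), 3.21-fold in complex III (Uqcrc1 over Uqcrb), 31.2-fold in complex IV (Cox6a2 over Cox6a1) and 16.2-fold in complex V (Atp5b over Atp5k). Part of this order depends on the gene length the table divides by. Atp5g1 stood at 113 FPKM with a deposited length of 4715 bases, and would stand at 896 on its shortest principal transcript in GENCODE M21 (596 bases). In the same way Cox6c would change from 102 to 616, Atp5e from 158 to 639 and Uqcrq from 219 to 823, while Atp5b (1635), Sdha (302) and Cycs (133) would keep their values. Length choices cancel when 1 gene is compared between libraries.

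**Figure D1:**
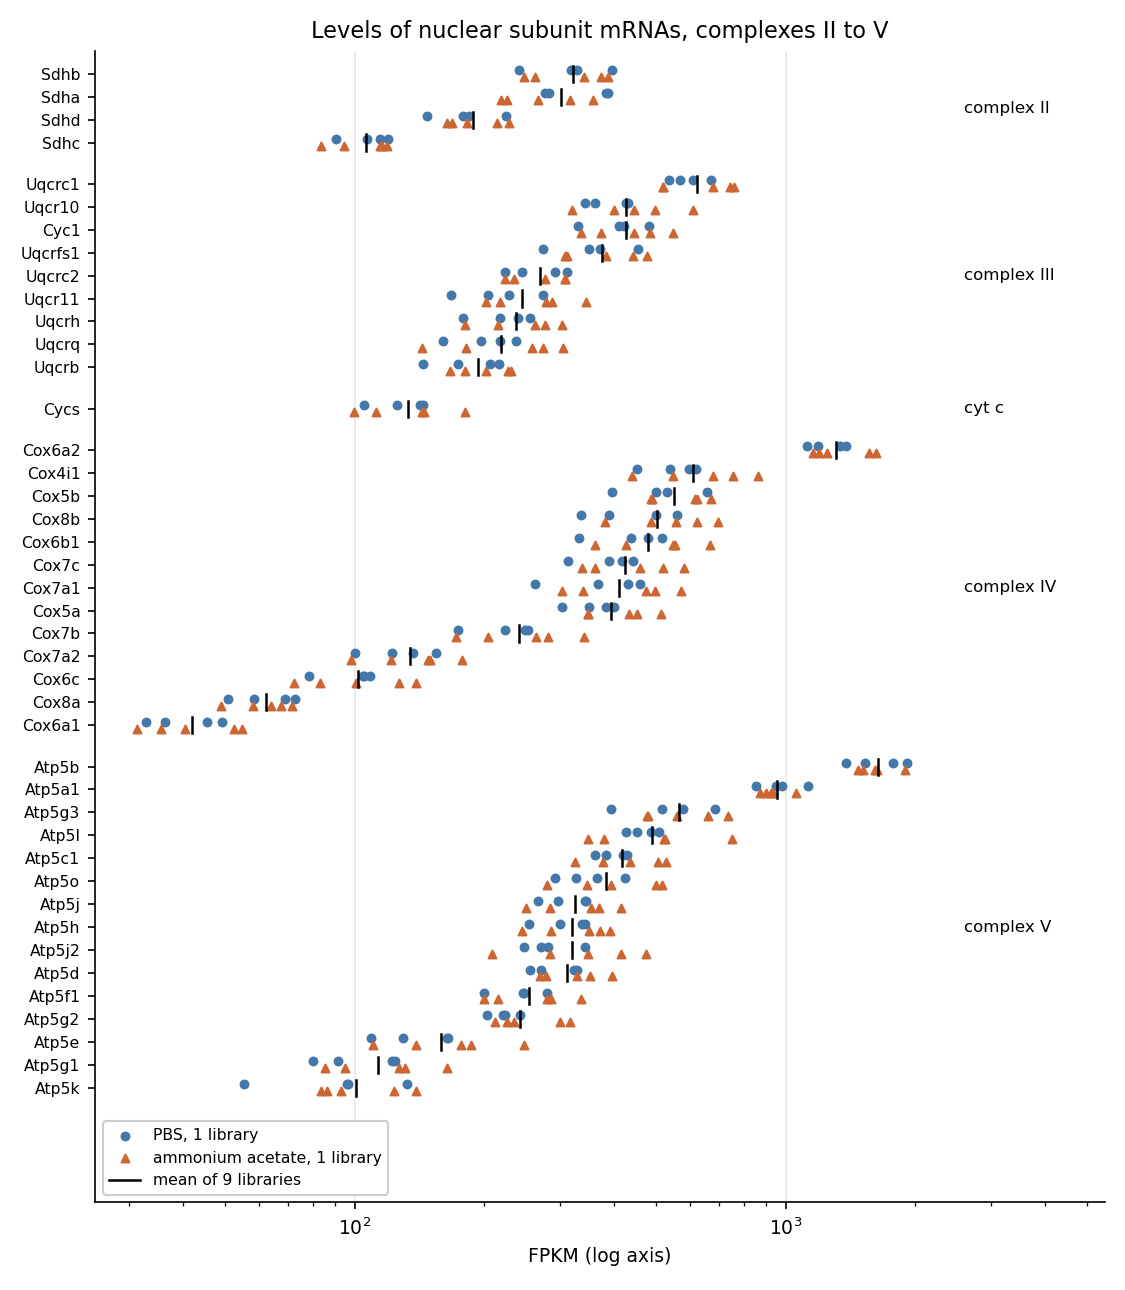
Level of each member in each library, in FPKM on a log axis, grouped by complex; circles are the 4 PBS libraries, triangles the 5 ammonium acetate libraries and black bars the mean of all 9. Members span from 42.04 FPKM (Cox6a1) to 1635 FPKM (Atp5b), and the circles and triangles of each member overlap.

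No member differed between the groups by the gene test. All 42 passed the filter on low values (mean FPKM of at least 0.5), and 0 of them reached an adjusted p of 0.05 in limma, as did 0% of the 11337 genes tested. Without adjustment 0 of 42 had a p under 0.05, against 8.57% of all tested genes (3.21% higher and 5.36% lower in ammonium acetate). With limma's voom on the reads recovered from the table the members' counts were also 0, and the unadjusted share over all genes was 9.84%. The smallest unadjusted p of a member was 0.141 (Sdha), and adjusted p-values ran from 0.532 to 0.992. In 0 of 42 did the ranges of the groups stand clear of each other, against 1.25% of tested genes with ammonium acetate wholly above PBS and 0.873% wholly below. Each interval covers 1 gene in this 1 fit and is not adjusted over the 42. It does not cover the choice of scaling or of libraries. The 95% interval of the fold change lay within 1.5-fold either way for 30 members and within 2-fold for all 42, the widest bounds on the log2 scale being -0.64 (Sdha) and 0.73 (Cox8b).

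Outside complex II the measured differences lay mostly above 0 with all 9 libraries and the deposited scaling. The log2 fold change, ammonium acetate minus PBS on log2(FPKM + 0.5), was above 0 in 37 of 42 members (88.1%), against 43.9% of all tested genes. Its median was 0.11 over the members and -0.03 over all tested genes, with a range from -0.27 (Sdha) to 0.30 (Cox8b). By complex the median was -0.02 in complex II (2 of 4 above 0), 0.12 in complex III (9 of 9), 0.16 in complex IV (12 of 13) and 0.11 in complex V (13 of 15). The 5 members below 0 were Sdha, Sdhc, Cox8a, Atp5a1 and Atp5b. These counts depended on the libraries and on the scaling. Without ammonium acetate libraries 6 and 8 only 10 of 42 were above 0 and the median was -0.03, with all 4 complex medians below 0. With each library's trend on gene length removed 23 were above 0, with quantile normalization 22 and with library weights 14, where the 4 complex medians were also below 0. The sign of the median further changed for complex III with the length trend removed (-0.01), for complex V under quantile normalization (-0.01) and with the trend on principal transcript length removed, and for complex II under median scaling (0.05), trimmed-mean scaling (0.03) and voom (0.03). In complex II it was also above 0, by at most 0.07, in 4 fits that each left out 1 library, numbers 4 and 5 of either group.

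**Figure D2:**
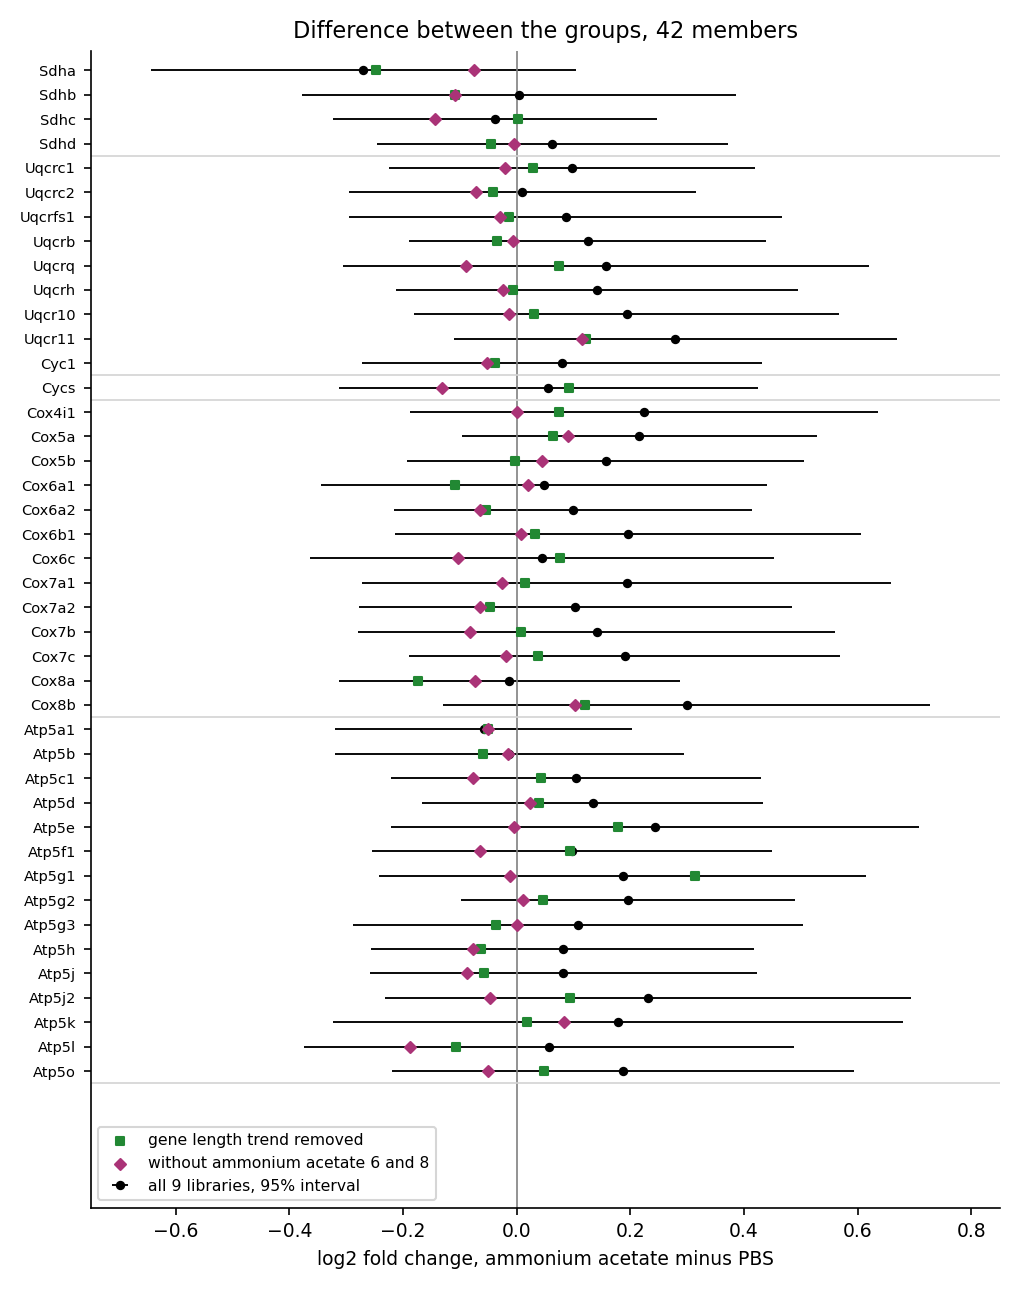
Log2 fold change of each member, ammonium acetate minus PBS, from limma with its 95% interval (black), with the gene length trend of each library removed (green squares) and without ammonium acetate libraries 6 and 8 (purple diamonds). Every black interval includes 0, and the 37 values above 0 with all 9 libraries become 23 and 10 in the other fits.

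The members moved together from library to library, and this common movement was wider than the difference between the groups. The mean log2 deviation of the 42 members from their own means was 0.05, 0.14, -0.35 and -0.08 in the PBS libraries and -0.31, -0.16, 0.16, 0.19 and 0.37 in the ammonium acetate libraries. PBS 7 and ammonium acetate 4 were the lowest libraries of their groups, and ammonium acetate 8 was the highest of all 9. The spread between the highest and the lowest library was 0.49 within PBS and 0.68 within ammonium acetate. The pooled SD of single libraries within the groups was 0.25, and the group means differed by 0.11. The median correlation between pairs of members was 0.86 over the 9 libraries, and 29 of 42 members had an r above 0.9 with the mean of the other 41. These correlations are descriptions, since all members share each library's depth, scaling and composition. In this bulk tissue fewer cells or fibres rich in these messages and less of each message per cell cannot be told apart.

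The members that departed from the common movement were few. Sdha had an r of -0.26 with the mean of the other 41, followed by Atp5a1 with 0.55, Atp5b with 0.61 and Atp5g2 with 0.65. Within complexes the median pair correlation was 0.49 in complex II, 0.89 in complexes III and IV and 0.84 in complex V. Without Sdha the mean deviation of complex II was 0.02, 0.26, -0.32 and 0.02 in PBS and -0.29, -0.19, 0.06, 0.21 and 0.23 in ammonium acetate, again with the lowest values of each group in PBS 7 and ammonium acetate 4.

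**Figure D3:**
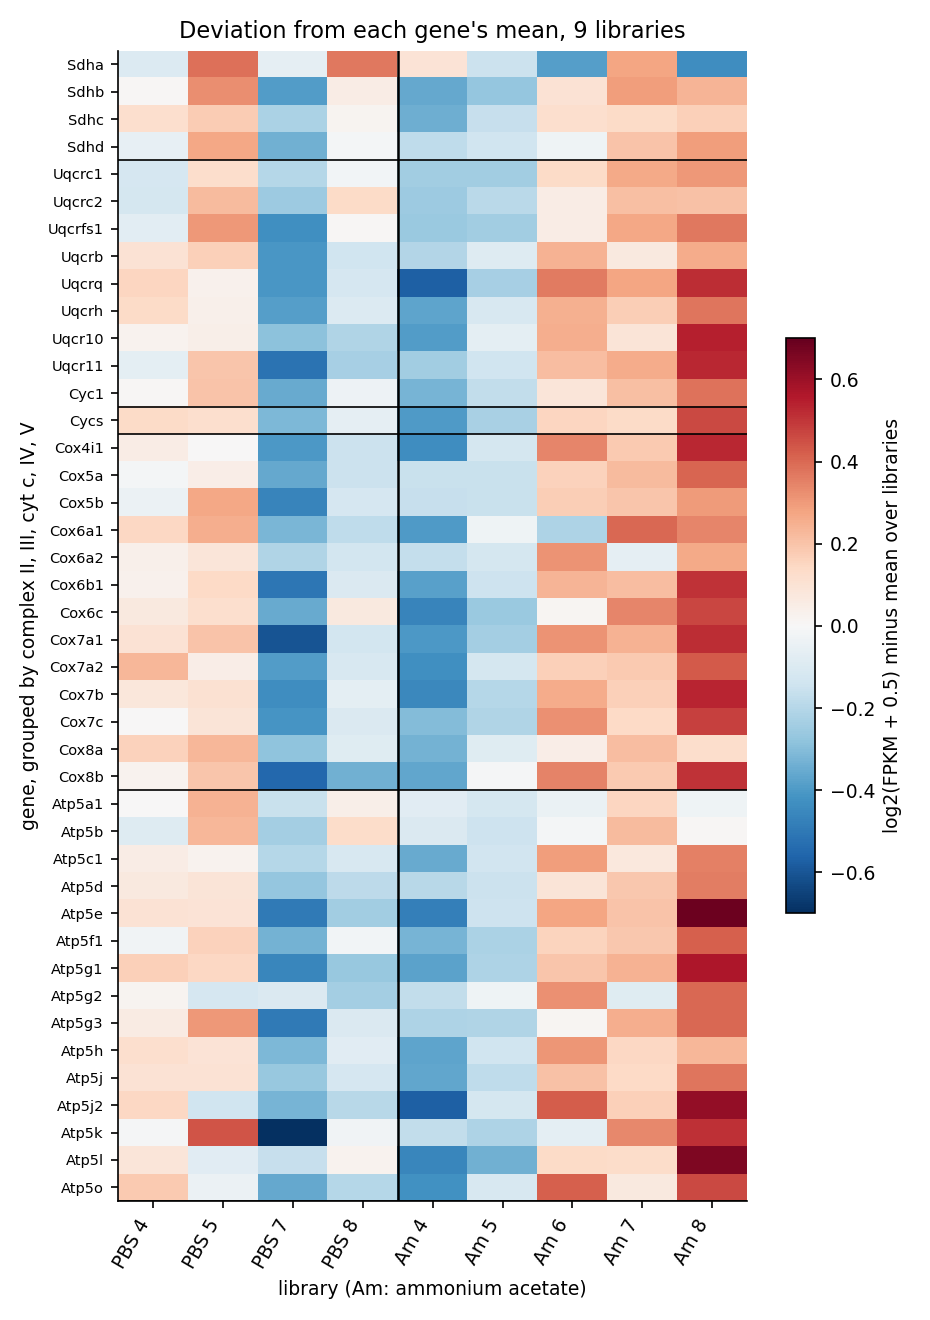
Deviation of each member from its own mean over the 9 libraries, on the log2(FPKM + 0.5) scale (red above, blue below), with members in rows by complex and libraries in columns, PBS left of the line. PBS 7 and ammonium acetate 4 are blue and ammonium acetate 8 is red in most rows, while Sdha at the top is among the highest in PBS 5 and 8 and lowest in ammonium acetate 6 and 8.

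The common movement went along with the reading of short against long genes. The value of short minus long genes was 0.05, -0.15, -0.24 and -0.39 in PBS and -0.30, 0.01, 0.56, -0.04 and 0.53 in ammonium acetate. Across the 9 libraries the members' mean deviation followed it with a Pearson r of 0.71 (Spearman rho 0.63), and with 0.48 (0.39) over the 7 libraries left without ammonium acetate 6 and 8. Sdha, one of the longest members at 2900 bases, went the other way, with an r of -0.82 (rho -0.78) and of -0.48 (-0.57) without those libraries. The similarly long Sdhc (3171 bases) and Cycs (3123 bases) had an r of 0.92 and 0.97 with the mean of the other members. Across the 42 members the log2 fold change had an r of -0.51 (rho -0.49) with the deposited gene length and of -0.68 (rho -0.60) with the length of the shortest principal transcript, a measure added after the data were seen, and for the latter across 10744 tested genes r was -0.48 (rho -0.50). Genes and members are not independent replicates. With the trend on deposited length removed the members' r with principal transcript length was -0.27. Removal of the trend on principal transcript length itself, which by construction brings this r close to 0, left 22 of 42 above 0. The part of transcript length in the difference between the groups was not tested.

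**Figure D4:**
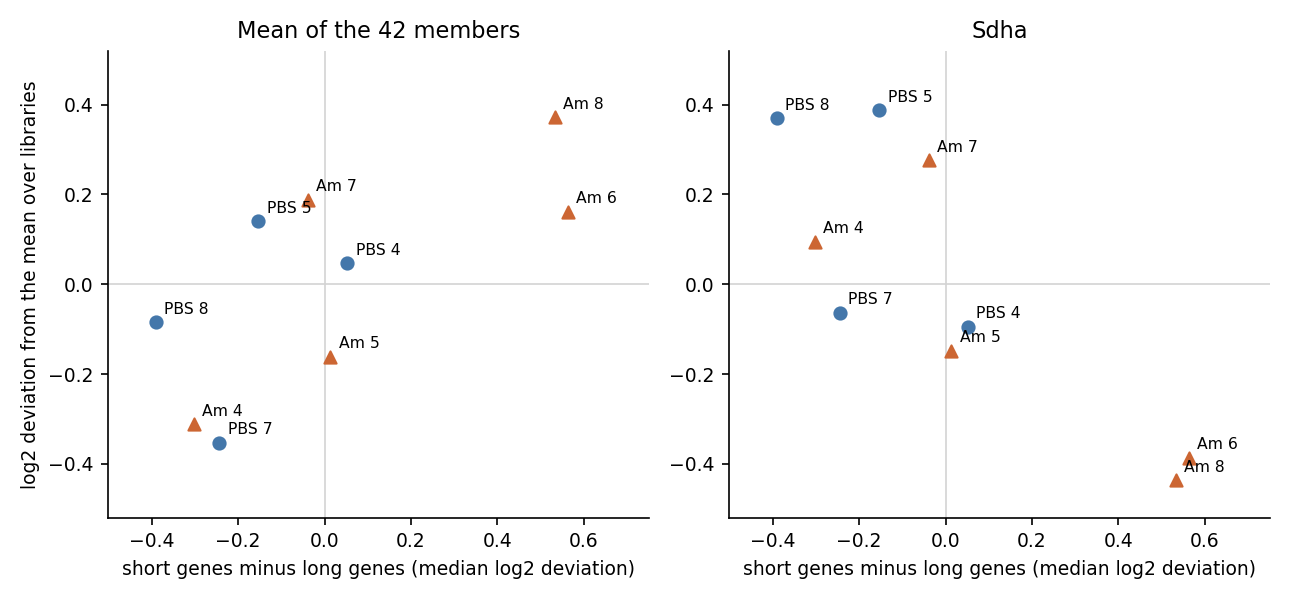
Mean log2 deviation of the 42 members (left) and deviation of Sdha (right) in each library against the median log2 deviation of genes under 1000 bases minus that of genes over 4000 bases; circles are PBS and triangles ammonium acetate (Am). The mean of the members runs upward with the length value (r = 0.71, 9 libraries) and Sdha runs downward (r = -0.82), with ammonium acetate 6 and 8 at the right end of both panels.

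Markers of fibre type and of other cells also differed between libraries. The summed level of 7 slow or oxidative fibre genes was 1366, 1766, 674 and 1909 FPKM in PBS and 767, 1519, 1431, 1647 and 849 in ammonium acetate. The 2 lowest sums belonged to PBS 7 and ammonium acetate 4, the libraries in which the respiratory members were lowest, but the third lowest belonged to ammonium acetate 8, in which they were highest. In this list 3 of 7 genes had a log2 fold change above 0 (4 of 7 under median scaling, 0 of 7 without PBS 7). Myh2, the myosin of fast oxidative fibres, had the smallest p, with 434 ± 152 FPKM with PBS and 249.7 ± 139 with ammonium acetate and a log2 fold change of -0.92 (SE 0.42, unadjusted p = 0.0492, adjusted p = 0.527, limma). The 5 endothelial genes summed to 73.4 to 84.7 FPKM in PBS and to 35.5 to 77.5 in ammonium acetate, with the lowest sums in libraries 6 (35.5) and 8 (44.7), and 5 of 5 had a fold change below 0. The same held for 4 of 4 fibro-adipogenic, 3 of 3 macrophage, 3 of 3 adipocyte and 3 of 3 erythroid genes tested, in each scaling tried, while without ammonium acetate 6 and 8 1 of the 3 macrophage genes was above 0. Without those 2 libraries the endothelial median was -0.20, against -0.53 with them. Of these genes 0 passed the adjusted test in limma, and 3 endothelial, 3 erythroid, 1 fibro-adipogenic and 1 macrophage gene had an unadjusted p under 0.05. Ucp1, the defining gene of brown fat, was listed at 0 in all 9 libraries. Of the other brown adipocyte genes Elovl3 was below the filter, whereas Cidea and Ppara passed it. Cidea had a mean of 0.98 FPKM with PBS and 1.01 with ammonium acetate, and Ppara 4.00 and 2.93. Whether the samples held brown fat was not tested. The part of fibre type and of other cells in the members' values was not tested.

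In complex II the course of Sdha over the libraries differed from that of the other 3 genes, and no gene differed between the groups. Sdha encodes the flavoprotein that oxidises succinate (ENSMUSG00000021577, chromosome 13, 74322254 to 74350280, minus strand, mm10, as are all gene positions below). Sdha measured 277, 387, 283 and 382 FPKM in the PBS libraries and 316, 267, 226, 358 and 218 FPKM in the ammonium acetate libraries. Only ammonium acetate 7 lay above the PBS mean, ammonium acetate 6 and 8 were the lowest of all libraries, and the groups overlapped. The log2 fold change was -0.27 (SE 0.17, unadjusted p = 0.141, adjusted p = 0.532, limma), with a 95% interval from -0.64 to 0.10. Sdha was below 0 in all 23 alternatives, from -0.37 without ammonium acetate 7 to -0.08 without ammonium acetate 6 and 8, and it was the only member with that record.

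Sdhb, the iron-sulphur subunit next in the electron path, followed the other members, with an r of 0.91. The PBS libraries held 318, 396, 241 and 328 FPKM of Sdhb, and the ammonium acetate libraries held 247, 262, 340.1, 388 and 374 FPKM. Its group means were 321 ± 63.3 FPKM with PBS and 322 ± 64.4 with ammonium acetate, a log2 fold change of 0.0038, and both groups covered nearly the same range. For Sdhc the values were 114, 119, 90.4 and 107 FPKM in PBS and 83.4, 94.5, 114, 116 and 119 FPKM in ammonium acetate. Sdhd stood at 178, 225, 147 and 184 FPKM in PBS and at 164, 169, 182, 214 and 228 FPKM in ammonium acetate. Sdhc and Sdhd encode the membrane anchors that hold haem and bind ubiquinone, and in both genes PBS 7 was the lowest PBS library and ammonium acetate 4 the lowest ammonium acetate library. Their log2 fold changes were -0.04 and 0.06 (adjusted p = 0.903 and 0.845, limma).

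The promoters of Sdha and Sdhd are shown because these genes of 1 complex followed different courses over the libraries. The windows are the 250 bases before the RefSeq start (GRCm38.p6, the same assembly as mm10), written 5′ to 3′ along the gene, and capitals mark matches on either strand to the NRF1 motif (GCGCA, any base, then GCGC) or to CCGGAAG, the core bound by ETS factors such as GABP.
Sdha, chr13:74350241-74350490, minus strand: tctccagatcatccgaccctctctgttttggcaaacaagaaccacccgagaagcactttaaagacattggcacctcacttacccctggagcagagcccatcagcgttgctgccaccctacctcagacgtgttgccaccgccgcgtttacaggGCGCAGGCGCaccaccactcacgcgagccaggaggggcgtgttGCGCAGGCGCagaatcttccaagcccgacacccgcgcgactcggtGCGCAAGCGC
Sdhd, chr9:50603850-50604099, minus strand: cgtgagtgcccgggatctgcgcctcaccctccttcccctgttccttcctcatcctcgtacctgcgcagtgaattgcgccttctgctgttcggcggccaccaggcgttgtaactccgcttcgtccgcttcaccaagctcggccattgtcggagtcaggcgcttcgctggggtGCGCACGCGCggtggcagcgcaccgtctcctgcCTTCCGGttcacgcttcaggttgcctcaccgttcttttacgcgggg
NRF1 and GABP are known as activators of nuclear genes for respiratory subunits. The window of Sdha held 3 matches to the NRF1 motif, and that of Sdhd held 1 to each motif. The end of the Sdha window reaches into the deposited gene, whose first base is 74350280. The last of its matches, at position 241 of the window, lies within the gene by that annotation. Of the 33 members with a RefSeq promoter window, 7 (21.2%) matched the NRF1 motif, against 4.23% of all 27025 genes, and 9 (27.3%) matched the ETS core, against 7.83%. The NRF1 matches lay in Sdha, Sdhd, Cox6a1, Atp5c1, Atp5g2, Atp5h and Atp5k, so that genes with fold changes from -0.27 to 0.20 carried them. Sdhb also has a window and had an r of 0.91 with the other members, like Sdhd with 0.89, but its window, not shown, matched neither motif. A match describes the letters of the window and not a bound site.

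All 9 genes of complex III had a log2 fold change above 0 with the 9 libraries, from 0.01 (Uqcrc2) to 0.28 (Uqcr11), whereas without ammonium acetate 6 and 8 their median was -0.02. Uqcr11 encodes a small accessory subunit (ENSMUSG00000020163, chromosome 10, 80402997 to 80406830, minus strand). Uqcr11 measured 228, 274, 167 and 204 FPKM in the PBS libraries and 202, 217, 277, 287 and 345 FPKM in the ammonium acetate libraries. PBS 7 was the lowest library and ammonium acetate 8 the highest, and the other values of the groups interleaved. The log2 fold change was 0.28 (SE 0.18, unadjusted p = 0.145, adjusted p = 0.532, limma), and it was above 0 in all 23 alternatives (0.09 to 0.40). Uqcr10, another small accessory subunit that packs near the Rieske protein and cytochrome c1, was also highest in ammonium acetate 8. The PBS libraries held 426, 432, 343 and 362 FPKM of Uqcr10, and the ammonium acetate libraries held 319.8, 400.2, 499, 446 and 611 FPKM. Its log2 fold change was 0.19 (SE 0.17, unadjusted p = 0.281, adjusted p = 0.611, limma), and 4 of 5 ammonium acetate libraries exceeded the PBS mean, while ammonium acetate 4 was the lowest of all libraries and the groups overlapped.

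Uqcrc1, a core protein related to mitochondrial processing peptidases, was the most abundant message of the complex on deposited lengths, whereas on shortest principal transcripts Uqcrq stood higher (823 against 623 FPKM). For Uqcrc1 the values were 568, 671, 536 and 609 FPKM in PBS and 520.3, 520.2, 677, 742 and 761 FPKM in ammonium acetate. In ammonium acetate 3 libraries exceeded all PBS libraries and the other 2 lay below all of them, so that ammonium acetate enclosed PBS, with a log2 fold change of 0.10. Uqcrb, an accessory subunit at the ubiquinone-binding site, was the least abundant. Uqcrb stood at 206, 216, 144 and 174 FPKM in PBS and at 166, 180.3, 227, 201 and 230.1 FPKM in ammonium acetate. PBS 7 was the lowest library, ammonium acetate 6 and 8 were the highest, and the log2 fold change was 0.12. Among the catalytic subunits Cyc1, which encodes cytochrome c1, measured 411 ± 63.3 FPKM with PBS and 437 ± 84.9 with ammonium acetate and Uqcrfs1, the Rieske iron-sulphur protein, 362 ± 74.5 FPKM with PBS and 384 ± 76.2 with ammonium acetate. Uqcrc2, the second core protein, had 268 ± 40.7 FPKM with PBS and 269.9 ± 39.8 with ammonium acetate. Uqcrq, an accessory subunit, had 203 ± 32.5 FPKM with PBS and 232 ± 67.6 with ammonium acetate, and Uqcrh, the acidic hinge protein that helps dock cytochrome c, had 223 ± 33.5 FPKM with PBS and 248 ± 49.02 with ammonium acetate. Their 5 fold changes on the log2 scale lay between 0.01 and 0.16.

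Cytochrome c itself, encoded by Cycs, carries electrons from complex III to complex IV. Cycs measured 144, 142, 105 and 125 FPKM in the PBS libraries and 99.5, 112, 145, 144 and 180.4 FPKM in the ammonium acetate libraries. Ammonium acetate 4 was the lowest and ammonium acetate 8 the highest of all libraries, and the log2 fold change was 0.06 (SE 0.17, unadjusted p = 0.748, adjusted p = 0.887, limma). The transcripts of 51 other genes share at least 100 bases with Cycs at 95% identity or more, and no source used here says how reads that match several genes were counted, so its level is uncertain. In all 20 of the 42 members share such a stretch with at least 1 other gene, which need not be a copy. Atp5l with 11 such genes and Atp5f1 and Atp5h with 4 each came next after Cycs, and the same limit holds for all 20. Cyct, the testis form of cytochrome c, was listed at 0 in all libraries.

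In complex IV the muscle isoforms dominated. The heart and skeletal muscle form of subunit VIa, Cox6a2, exceeded the widely expressed Cox6a1 by 22.5- to 45.1-fold across the libraries. Cox8b exceeded Cox8a by 6.54- to 10.3-fold and Cox7a1 exceeded Cox7a2 by 2.61- to 3.36-fold. The PBS libraries held 1335, 1381, 1124 and 1190.4 FPKM of Cox6a2, and the ammonium acetate libraries held 1158, 1194, 1621, 1244 and 1563 FPKM. For Cox6a1 the values were 45.6, 49.2, 32.9 and 36.4 FPKM in PBS and 31.2, 40.4, 35.5, 54.7 and 52.4 FPKM in ammonium acetate. Ammonium acetate 6 was the highest library for Cox6a2 but the second lowest of its group for Cox6a1, and ammonium acetate 7 was near the middle for the first and highest of all for the second. The log2 ratio of Cox6a2 over Cox6a1 was 4.86, 4.80, 5.07 and 5.01 in PBS and 5.19, 4.87, 5.49, 4.49 and 4.89 in ammonium acetate. The group means differed by 0.05 (exact two-sided permutation test, p = 0.802, adjusted over the 6 isoform ratios p = 0.960), and ammonium acetate spread around PBS on both sides.

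Cox7a1 stood at 429.8, 459.6, 263 and 367 FPKM in PBS and at 303, 339, 497, 473 and 572 FPKM in ammonium acetate. Cox7a2 measured 155, 136, 100.4 and 122 FPKM in the PBS libraries and 98.1, 121, 148, 149.8 and 178 FPKM in the ammonium acetate libraries. Both genes, which encode subunit VIIa at the dimer interface, were lowest in PBS 7 within PBS and in ammonium acetate 4 within ammonium acetate. Their log2 ratio was 1.47, 1.75, 1.38 and 1.58 in PBS and 1.62, 1.48, 1.74, 1.66 and 1.68 in ammonium acetate, a difference of 0.09 that was smaller than the PBS range (exact permutation p = 0.302, adjusted p = 0.778).

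Subunit VIII gave the largest of the 6 differences in isoform ratio on the deposited values, although with the gene length trend removed that of Atp5g1 over Atp5g3 was larger (0.35 against 0.29). That fit took Atp5g1 at its deposited length of 4715 bases. With the trend on shortest principal transcript length removed instead, Atp5g1 over Atp5g3 differed by 0.068 and Cox8b over Cox8a by 0.29. Cox8b, the muscle form (ENSMUSG00000025488, chromosome 7, 140898943 to 140900446, minus strand), had the highest fold change of the 42 members with all 9 libraries and the deposited scaling, a place taken by Atp5g1 (0.31) with the gene length trend removed and by Uqcr11 (0.11) without ammonium acetate 6 and 8. The PBS libraries held 499, 561, 335 and 389 FPKM of Cox8b, and the ammonium acetate libraries held 381, 488, 624, 556 and 697 FPKM. For Cox8a the values were 69.2, 72.7, 50.8 and 58.3 FPKM in PBS and 49.1, 58.2, 63.9, 71.8 and 67.4 FPKM in ammonium acetate. Cox8b was highest in ammonium acetate 8 and 6, whereas Cox8a (ENSMUSG00000035885, chromosome 19, 7215158 to 7217616, minus strand) was highest in PBS 5, and for each gene alone the groups overlapped. The log2 fold changes were 0.30 (SE 0.20, unadjusted p = 0.154, adjusted p = 0.532, limma) for Cox8b and -0.01 for Cox8a. The log2 ratio of Cox8b over Cox8a was 2.84, 2.94, 2.71 and 2.73 in PBS and 2.94, 3.06, 3.28, 2.94 and 3.36 in ammonium acetate. All 5 ammonium acetate libraries lay above all 4 PBS libraries, but the lowest stood only 0.0025 above PBS 5. The group means differed by 0.31 with an exact permutation p of 0.0317, the smallest p this design allows being 0.00794, and the difference did not pass the threshold after adjustment over the 6 ratios (p = 0.190). Adjusted p-values over the alternatives ran from 0.143 to 0.536. Without ammonium acetate 6 and 8, the libraries with the highest ratios, the difference was 0.18, and with the length trend removed it was 0.29.

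**Figure D5:**
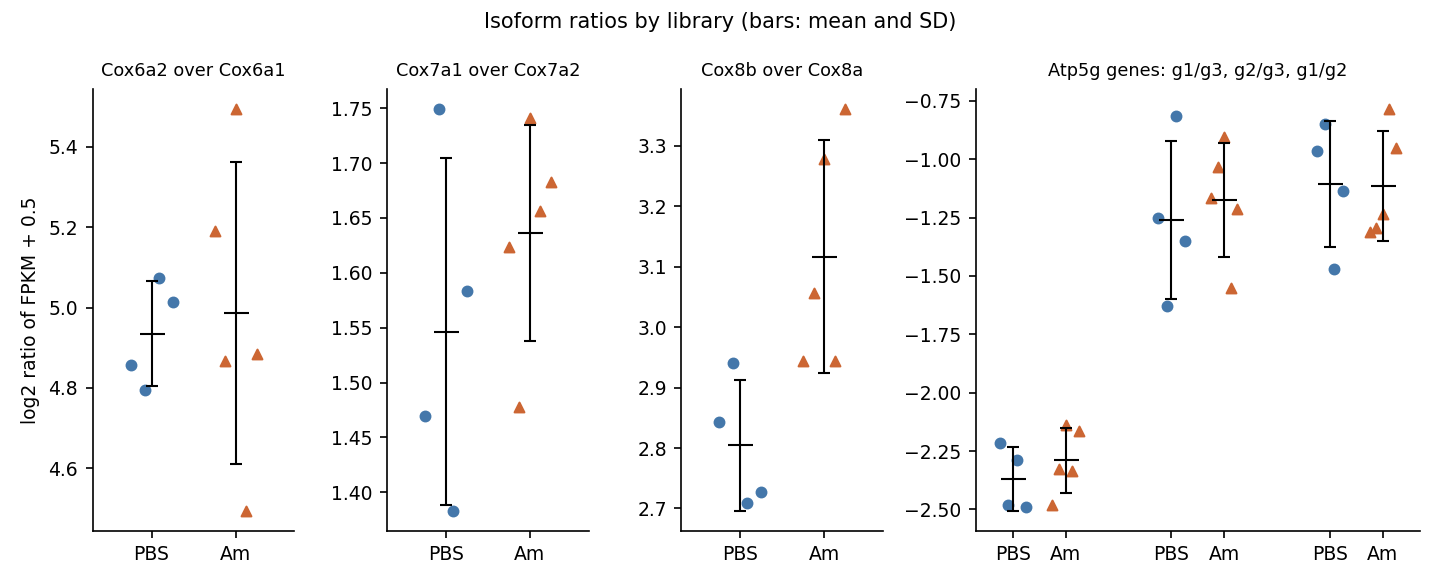
Log2 ratio of FPKM + 0.5 between isoforms in each library, PBS (circles) and ammonium acetate (Am, triangles), with group mean and SD; each panel has its own axis, which does not start at 0. For Cox8b over Cox8a the triangles start where the circles end (2.94) and reach 3.36, and for the other 5 ratios the groups overlap.

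The promoters of this pair are shown because their ratio was the only one of the 6 whose groups did not overlap. Both windows are the 250 bases before the RefSeq start, 5′ to 3′ along the gene, and capitals mark a match to the E-box CAGCTG, a sequence recognised by myogenic factors such as MyoD.
Cox8b, chr7:140900447-140900696, minus strand: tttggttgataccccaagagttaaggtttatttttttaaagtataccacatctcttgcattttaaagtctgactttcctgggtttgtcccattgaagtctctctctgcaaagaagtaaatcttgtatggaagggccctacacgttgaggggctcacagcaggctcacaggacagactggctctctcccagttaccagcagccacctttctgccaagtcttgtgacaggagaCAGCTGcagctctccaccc
Cox8a, chr19:7217617-7217866, minus strand: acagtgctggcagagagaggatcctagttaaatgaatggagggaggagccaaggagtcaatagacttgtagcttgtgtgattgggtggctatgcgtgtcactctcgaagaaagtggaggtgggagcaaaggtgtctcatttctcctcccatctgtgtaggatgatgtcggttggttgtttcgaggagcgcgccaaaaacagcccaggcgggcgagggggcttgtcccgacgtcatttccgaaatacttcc
Cox8b and Atp5b were the 2 members with this E-box (6.06% of 33, against 14.7% of all genes), and the window of Cox8a held none of the motifs searched. The MEF2-like motif (CTA and TAG with any 4 bases between them) occurred in 1 member, Cox5b (3.03%, against 3.70% of all genes).

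The other complex IV genes lay close to the common movement, with an r of 0.93 to 0.99 with the mean of the other 41 members. Cox5a, a subunit on the matrix side, had the second smallest p of the complex. Cox5a stood at 384, 400.1, 302 and 349.7 FPKM in PBS and at 348, 349, 434, 453 and 514 FPKM in ammonium acetate. In ammonium acetate 3 libraries exceeded all of PBS, the other 2 lay within the PBS range, and the log2 fold change was 0.22 (SE 0.14, unadjusted p = 0.157, adjusted p = 0.532, limma). Cox4i1, the main form of subunit IV, to which adenine nucleotides bind, had 551 ± 74.5 FPKM with PBS and 657 ± 166 with ammonium acetate, a log2 fold change of 0.22. Cox5b, which binds zinc, had 521 ± 108 FPKM with PBS and 577 ± 83.9 with ammonium acetate and Cox6b1, which lies on the intermembrane side, 442 ± 80.7 FPKM with PBS and 511 ± 119 with ammonium acetate. The small membrane-spanning subunits Cox6c, Cox7b and Cox7c had 99.1 ± 13.98 FPKM with PBS and 104 ± 28.1 with ammonium acetate, 225 ± 36.4 FPKM with PBS and 252 ± 66.3 with ammonium acetate, and 391 ± 56.5 FPKM with PBS and 451 ± 103 with ammonium acetate respectively. For these 5 genes the log2 fold changes lay between 0.04 and 0.20, each with an adjusted p above 0.62 in limma.

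In complex V the alpha and beta subunits of the catalytic head varied least of all members. Atp5b encodes the beta subunit, which carries the catalytic sites, and was the most abundant member (ENSMUSG00000025393, chromosome 10, 128083273 to 128090391, plus strand). Atp5b measured 1526, 1909.8, 1378 and 1775 FPKM in the PBS libraries and 1515, 1472, 1612, 1896 and 1632 FPKM in the ammonium acetate libraries. PBS 5 and ammonium acetate 7 were the highest, and the groups covered nearly the same range, with a log2 fold change of -0.01 (SE 0.14, unadjusted p = 0.927, adjusted p = 0.972, limma). Atp5a1, the alpha subunit, had 979 ± 113 FPKM with PBS and 938 ± 70.3 with ammonium acetate and the lowest coefficient of variation of the 42 over all libraries (9.20%), followed by Atp5b (11.5%). The highest belonged to Atp5e (27.3%).

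The central stalk subunits gamma, delta and epsilon are encoded by Atp5c1, Atp5d and Atp5e. The PBS libraries held 165, 164, 109 and 129.6 FPKM of Atp5e, and the ammonium acetate libraries held 110.2, 139, 186, 177 and 247 FPKM. Atp5e was highest in ammonium acetate 8 and lowest in PBS 7 and ammonium acetate 4, which nearly coincided, and its log2 fold change was 0.24 (SE 0.21, unadjusted p = 0.275, adjusted p = 0.607, limma). Atp5c1 had 398 ± 32.2 FPKM with PBS and 434 ± 85.5 with ammonium acetate and Atp5d had 294 ± 36.5 FPKM with PBS and 324 ± 52.3 with ammonium acetate, with log2 fold changes of 0.11 and 0.13. In the peripheral stalk Atp5f1 (subunit b) had 243 ± 33.2 FPKM with PBS and 263 ± 55.3 with ammonium acetate, Atp5h (subunit d) 308 ± 40.9 FPKM with PBS and 328 ± 61.4 with ammonium acetate, Atp5j (coupling factor) 312 ± 38.1 FPKM with PBS and 334 ± 67.03 with ammonium acetate and Atp5o, which confers oligomycin sensitivity, 352 ± 56.95 FPKM with PBS and 407 ± 101 with ammonium acetate. Their log2 fold changes lay between 0.08 and 0.19.

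Atp5k, Atp5l and Atp5j2 encode small subunits of the membrane part. Atp5k, subunit e, which helps ATP synthase form dimers, had the lowest level. For Atp5k the values were 96.7, 132, 55.5 and 95.8 FPKM in PBS and 86.5, 83.7, 92.98, 123 and 139 FPKM in ammonium acetate. PBS 7 lay far below the other libraries, PBS 5 and ammonium acetate 8 were the highest, and the log2 fold change was 0.18 (SE 0.23, unadjusted p = 0.453, adjusted p = 0.718, limma). It was -0.06 without PBS 7. Atp5l, subunit g, had 469 ± 35.9 FPKM with PBS and 505 ± 159.9 with ammonium acetate, with its highest value (752) in ammonium acetate 8. Atp5j2, subunit f, had 285 ± 40.4 FPKM with PBS and 346 ± 105 with ammonium acetate.

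The rotor ring is built of subunit c, for which 3 nuclear genes encode the same mature protein behind different import sequences. The ends of the coding sequences are shown because they tell how far reads can be assigned to 1 gene. They come from GENCODE M21 transcripts, run 5′ to 3′ along the gene to the stop codon, and capitals mark positions at which the 3 genes are not all alike.
Atp5g1, last 90 coding bases: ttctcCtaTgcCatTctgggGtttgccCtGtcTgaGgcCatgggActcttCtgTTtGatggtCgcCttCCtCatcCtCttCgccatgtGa
Atp5g2, last 90 coding bases: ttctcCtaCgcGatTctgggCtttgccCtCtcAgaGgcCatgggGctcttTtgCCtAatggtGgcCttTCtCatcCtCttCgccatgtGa
Atp5g3, last 90 coding bases: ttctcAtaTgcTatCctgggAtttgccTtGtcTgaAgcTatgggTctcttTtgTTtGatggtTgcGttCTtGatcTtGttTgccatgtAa
Over the last 228 coding bases 53 of 76 codons differed between the genes and 0 of the encoded residues did. Identity over this stretch was 79.8% between Atp5g1 and Atp5g3, 78.5% between Atp5g2 and Atp5g3 and 85.1% between Atp5g1 and Atp5g2. Over the whole of the shortest principal transcripts the longest identical run in any pair was 21 bases, and longer transcripts were not compared.

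Atp5g3 stood at 578, 684, 394 and 517 FPKM in PBS and at 477, 479.6, 559, 662 and 735 FPKM in ammonium acetate. Atp5g2 measured 243, 221, 223 and 202 FPKM in the PBS libraries and 212, 234, 299, 225 and 317 FPKM in the ammonium acetate libraries. The PBS libraries held 124, 122, 80.3 and 91.7 FPKM of Atp5g1, and the ammonium acetate libraries held 85.2, 95.1, 127, 131 and 163 FPKM. Atp5g3 and Atp5g1 were lowest in PBS 7, whereas Atp5g2 covered a narrow range in PBS and was highest in ammonium acetate 6 and 8. Groups overlapped for all 3. Atp5g2 had the smallest p of complex V, with a log2 fold change of 0.20 (SE 0.13, unadjusted p = 0.173, adjusted p = 0.541, limma). In all 23 alternatives it was above 0, down to 0.01 without ammonium acetate 6 and 8. Gm10039 shares such a stretch with Atp5g1 and was listed at a mean of 6.96 FPKM, and 2 genes share one with Atp5g2, of which Gm10175 was the higher at 1.61 FPKM. The ratios within the family did not separate the groups. The log2 ratio differed by 0.08 for Atp5g1 over Atp5g3 (exact permutation p = 0.389), by 0.09 for Atp5g2 over Atp5g3 (exact permutation p = 0.659) and by -0.01 for Atp5g1 over Atp5g2 (exact permutation p = 0.960), with adjusted p-values of 0.778, 0.960 and 0.960. Atp5g1 over Atp5g2 ranged from -1.47 (PBS 7) to -0.79 (ammonium acetate 7). This order rests on the deposited lengths, since on shortest principal transcripts Atp5g1 would stand at 896, Atp5g3 at 682 and Atp5g2 at 413 FPKM. With the trend on deposited gene length removed Atp5g1 over Atp5g3 differed by 0.35 between the groups and did not pass the exact permutation test after adjustment. With the trend on shortest principal transcript length removed it differed by 0.068.

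The partners of these subunits gave no call either. Of the 6 genes of complexes III to V that lie on mitochondrial DNA 3 had a log2 fold change above 0, and 0 with the gene length trend removed, with library weights or without ammonium acetate 6 and 8. Mt-Cytb, the cytochrome b of complex III, measured 17617 ± 2275 FPKM with PBS and 15354 ± 2231 with ammonium acetate, and mt-Co1, the catalytic subunit of complex IV, measured 30423 ± 3794 FPKM with PBS and 26275 ± 3085 with ammonium acetate, with log2 fold changes of -0.20 and -0.21 (adjusted p = 0.651 and 0.657, limma). Mt-Co2, mt-Co3 and mt-Atp6 were listed far below these, at 104 to 248.9 FPKM over all libraries, and mt-Atp8 at 0 to 1.91. The 3 genes above 0 were mt-Co3, mt-Atp6 and mt-Atp8, all among these low-listed genes, while mt-Co2 was below 0 (-0.18). No source used here says how their reads were counted, so the fold changes of these low-listed genes are uncertain. The nuclear genes of complex IV minus mt-Co1, as mean log2 deviations, gave -0.05, -0.13, -0.26 and -0.35 in PBS and -0.16, -0.10, 0.37, 0.04 and 0.64 in ammonium acetate. The highest 2 values were those of ammonium acetate 6 and 8, and the other 3 lay within or just above the PBS range. For complex III minus mt-Cytb these 2 libraries gave 0.37 and 0.51, against -0.23 to 0.02 in the other 7.

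Other nuclear subunits and isoforms had fold changes above 0 in 6 of 6 tested genes, in 3 of 6 with the gene length trend removed and in 2 of 6 without ammonium acetate 6 and 8. Among them Ndufa4, now counted with complex IV, had 767 ± 85.6 FPKM with PBS and 937 ± 284 with ammonium acetate. Of the assembly factors 1 of 1 for complex II, 3 of 5 for complex III, 12 of 17 for complex IV and 3 of 3 for complex V were above 0, counts that median scaling raised to 5 of 5 for complex III and 15 of 17 for complex IV and that library weights lowered to 2 of 5, 8 of 17 and 2 of 3 for complexes III, IV and V. Pet100, a complex IV assembly factor, had the smallest p of its list, with 3.57 ± 0.193 FPKM with PBS and 4.65 ± 0.964 with ammonium acetate and a log2 fold change of 0.32 (SE 0.14, unadjusted p = 0.0434, adjusted p = 0.527, limma). Uqcc2, a complex III assembly factor, had 117 ± 15.4 FPKM with PBS and 155 ± 40.3 with ammonium acetate and a log2 fold change of 0.37 (SE 0.17, unadjusted p = 0.0516, adjusted p = 0.527, limma). The carriers that export ATP and import phosphate, Slc25a3, Slc25a4 and Slc25a5, were above 0 in 3 of 3 (2 of 3 under quantile normalization, 0 of 3 with library weights). In each of these lists 0 genes passed the adjusted test in limma, and Pet100 was the only one with an unadjusted p under 0.05. Sdhaf1, Cox16, Cox17, Sco2 and Pet117 were below the filter and are not in these counts, and Sco2 and Pet117 were listed at 0 in every library. Sdhaf3, Sdhaf4 and Uqcc3 were not analysed here.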

How the data were processed

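The authors deposited 1 table of FPKM values for 9 gastrocnemius libraries. Per the submitters' processing notes the tools were TopHat, STAR, HTSeq and DESeq2 and the build mm10, without roles or versions. No source used here gives the strandedness or the treatment of reads matching several genes. FPKM times length gave whole reads within 0.05 read for 100% of values, 33664748 ± 6668617 reads with PBS (SD, n = 4) and 31293852 ± 5570241 with ammonium acetate (SD, n = 5). No libraries were identical. A mean FPKM of 0.5 or more was required, which left 11337 genes. Two-sided tests on log2 values of FPKM + 0.5 used limma 3.58.1 in R 4.3.3 with its mean-variance option, and p-values were adjusted over all these genes after Benjamini and Hochberg. This scale understates changes of low genes. The fit was tested on simulated data. Isoform ratios of FPKM + 0.5 were compared by exact two-sided permutation. Trimmed-mean scaling was computed in Python 3.11.15. Libraries were grouped by their labels, without covariates. Every library value was given for complex II, cytochrome c, the isoform pairs and, in each larger complex, the members of smallest p (2) and of highest and lowest level; from other lists the genes of smallest p were named, and Ucp1, Cyct, the keratins, the carriers and other mitochondrially encoded genes were added after their values were seen. Of the 23 alternatives 1, the trend on shortest principal transcript length (lowess, span 0.3), was added after the data were seen. The members, the lists and the remaining alternatives were chosen with earlier results of these data known.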

Additional observations from a re-analysis of the deposited data

Results flagged for a closer look

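Among 104 groups of 4 or 5 library values of the members and complexes, 2 held a library far from the rest of its group. Chance alone gives about 1 in 20, so these 2 were no more than chance gives. The groups are not independent, since the complexes are built from the members. Cox6c, a small membrane subunit of complex IV, measured 78.2 FPKM in PBS 7, while the other PBS libraries lay between 104.7 and 108.4. Complex II took 0.216% of all reads in ammonium acetate 7, while the other ammonium acetate libraries lay between 0.161% and 0.176%.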

How the results depend on the processing

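The count of members past the adjusted threshold was 0 under all 23 alternatives, as was the count over all genes. Without adjustment 3 members had a limma p under 0.05 without ammonium acetate 4, where 1730 of all tested genes did. The same held for 1 member without ammonium acetate 7, where 1656 of all tested genes did, and for no member in the other alternatives. The count of members above 0 (37) was 10 without ammonium acetate 6 and 8, 14 with library weights, 22 with quantile normalization, 23 with the gene length trend removed and 22 with the trend on shortest principal transcript length removed. It ran from 25 (without PBS 7) to 41 (without PBS 5) when 1 library was left out and from 35 to 41 in the others. The cause was not tested. The members' median ran from 0.02 to 0.19 with 1 library left out. In 6 members (Uqcr11, Cox5a, Cox6b1, Cox8b, Atp5d and Atp5g2) the fold change was above 0 in every alternative, and in 1, Sdha, below. With 1 library left out the isoform differences ran from -0.076 to 0.17 (Cox6a2 over Cox6a1), 0.04 to 0.16 (Cox7a1 over Cox7a2), 0.25 to 0.36 (Cox8b over Cox8a), 0.04 to 0.13 (Atp5g1 over Atp5g3), -0.035 to 0.24 (Atp5g2 over Atp5g3) and -0.13 to 0.076 (Atp5g1 over Atp5g2). Without ammonium acetate 6 and 8, Cox6a2 over Cox6a1 was -0.084 and Atp5g1 over Atp5g3 -0.013. With the gene length trend removed Atp5g1 over Atp5g2 was 0.27 and Atp5g1 over Atp5g3 0.35. Atp5g1 over Atp5g2 was 0.0080 and Atp5g1 over Atp5g3 0.068 with the principal transcript trend removed. The libraries of both groups share numbers 4, 5, 7 and 8, whose deviations correlated at -0.28, -0.07, -0.34 and -0.28. Pairs with different numbers ran from -0.29 to 0.35. The labels do not say whether equal numbers pair libraries, and these correlations, which carry each library's shared movement, cannot decide it. With the replicate number as a block, on the 8 libraries left without the unpartnered ammonium acetate 6, 0 genes and 0 members passed, and 259 genes had an unadjusted p under 0.05, against 509 in those libraries without the block. With 4 and 5 libraries and a median standard error of 0.17 for the members, intervals stayed within 1.5-fold for only 30 of the 42, so changes of that size and, after adjustment over all genes, larger ones could be missed.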
